A study of Mus musculus with 6 samples.

Results

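The genes described here, named for the specific granule of neutrophils, are 10 in number and were taken by symbol from the series' count table: the lactoferrin gene Ltf, the lipocalin gene Lcn2, the cathelicidin gene Camp, Ngp, Cd177, the lysozyme genes Lyz2 and Lyz1, Olfm4, the haptoglobin gene Hp and Ltbp1. All 10 of the 10 names were found among 45777 genes, and all 10 passed the filter on low counts. Neutrophils of wild-type C57BL/6 mice were separated from bone marrow on a Percoll gradient. They were cultured for 24 h with PGE2, the arachidonic acid product prostaglandin E2, at 10 µM (3 libraries), or with the DMSO vehicle (3 libraries). The design states biological replicates, without naming the animals behind each number, so the p-values measure the spread between these libraries. Libraries held 42091346 to 56238941 counts. Values are given as CPM, the count relative to the scaled library size, and as TPM, the authors' length-adjusted abundance, which alone allows levels of different genes to be compared.

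Neutrophils carry several kinds of granule, filled in sequence while the cell matures in the marrow. Azurophil granules are made first, then specific granules, then gelatinase granules, and each content protein is stored in the granule being formed when its gene is transcribed. Specific granules hold iron-binding and bactericidal proteins that are released to the outside or into the phagosome, and transcription of their genes peaks at an intermediate stage of maturation under the transcription factor C/EBP epsilon.

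With PGE2, 5 of the 10 genes were lower, 0 were higher and 5 did not pass (edgeR's quasi-likelihood test, adjusted p below 0.05 over 15947 genes). Over all genes tested, 14.3% were lower, 10.1% higher and 24.4% either. Of the 10, 4 (Ltf, Cd177, Lyz1 and Lyz2) passed with a fall of at least 2-fold, as did 3.78% of all genes. Lyz1 shares part of its sequence with the far more abundant Lyz2, so its call may not be separate. The genes that fell were Ltf, Cd177, Lyz1, Lyz2 and Lcn2, and in these 5 the groups did not overlap (21.8% of all genes lay lower without overlap). The count was 3 when vehicle replicate 1, PGE2 replicate 2 or PGE2 replicate 3 was left out, with Ltf and Lcn2 lost. When the replicate number was added as a block, so that each PGE2 library was set against the vehicle library of its number, Ngp, Olfm4 and Camp were lower as well, which made 8 of 10, where 18.9% of all genes were lower and 35.5% called in either direction. The pairing behind the block was read from these same data, since no label says what a replicate number marks. Hp did not pass in either fit, nor did Ltbp1. The median log2 fold change of the 10 genes was -0.88, beside 0.04 over all genes tested.

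**Figure D1:**
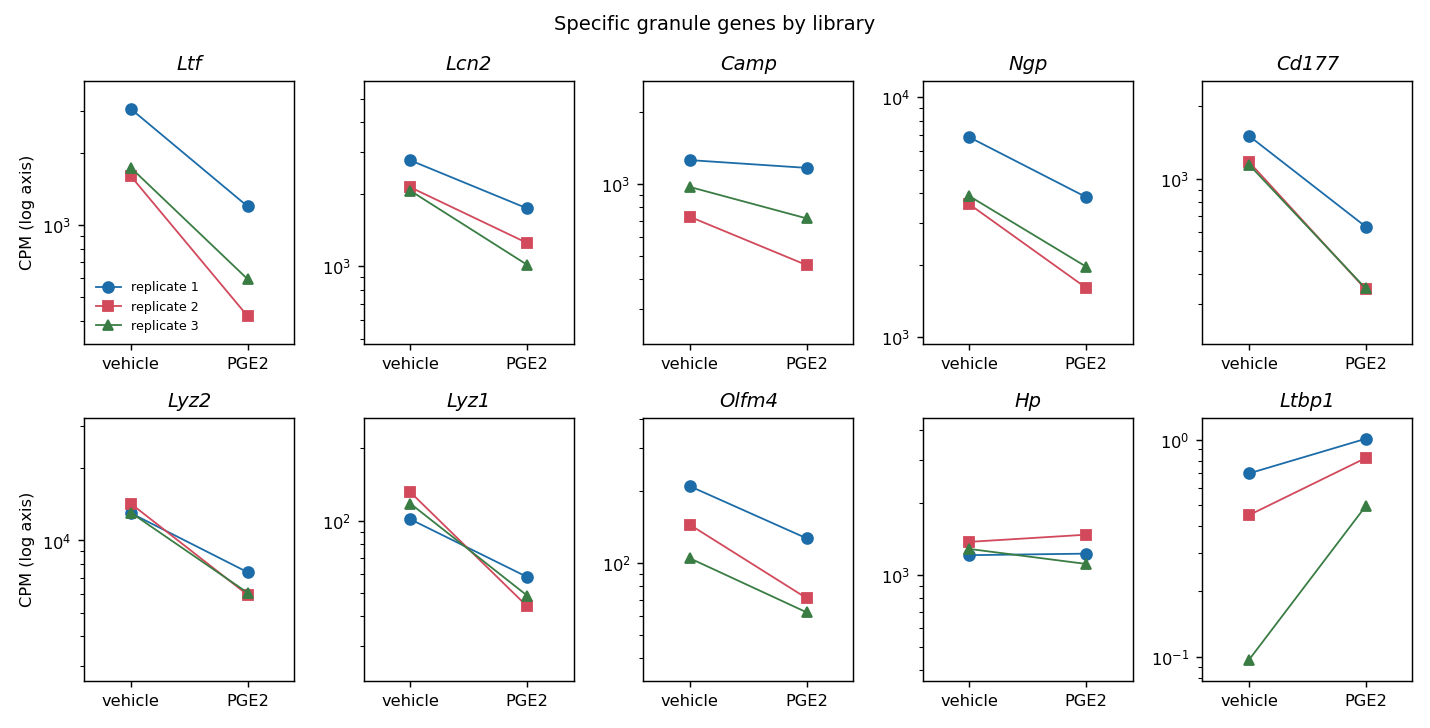
CPM of each gene (vertical log axis) in the 3 vehicle and 3 PGE2 libraries (horizontal axis), with a line joining libraries of the same replicate number. For 8 genes all 3 lines go down, the lines of Hp stay nearly level and those of Ltbp1 go up from a level below 1 CPM.

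In vehicle these genes were among the most abundant of the cells, with the exception of Lyz1, Olfm4 and Ltbp1. By mean TPM over the 3 vehicle libraries Lyz2 ranked 4 among all genes, at 22239 ± 957 TPM (SD, n = 3). It was followed by Ngp at 7309 ± 3265, Lcn2 at 4810 ± 1123 and Camp at 2919 ± 972 TPM. The ranges of Ngp and Lcn2 overlapped between libraries, while Ngp was above Lcn2 within each vehicle library. Hp stood at 1682 ± 29.9, Ltf at 1384 ± 619 and Cd177 at 833 ± 187 TPM, and the range of Ltf overlapped that of each of the other two. Lyz1 (161 ± 10.7 TPM) and Olfm4 (98.3 ± 40.0 TPM) were far lower. In the PGE2 libraries the order of mean TPM was the same, from Lyz2 at 9956 ± 1848 TPM to Olfm4 at 51.6 ± 23.1 TPM, while Ltf moved from rank 59 to rank 262 and Cd177 from 123 to 402.

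Summed, the 10 genes took 2.97, 2.39 and 2.34% of the counts in vehicle replicates 1, 2 and 3, and 1.81, 1.13 and 1.29% in PGE2 replicates 1, 2 and 3. No PGE2 library reached the lowest vehicle library. The means were 2.57 ± 0.35% and 1.41 ± 0.36%. Lyz2 alone supplied 51.2 ± 6.93% of these counts in vehicle and 48.1 ± 4.91% with PGE2. In bulk RNA, fewer cells that express a gene and less of its RNA per cell cannot be told apart.

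**Figure D2:**
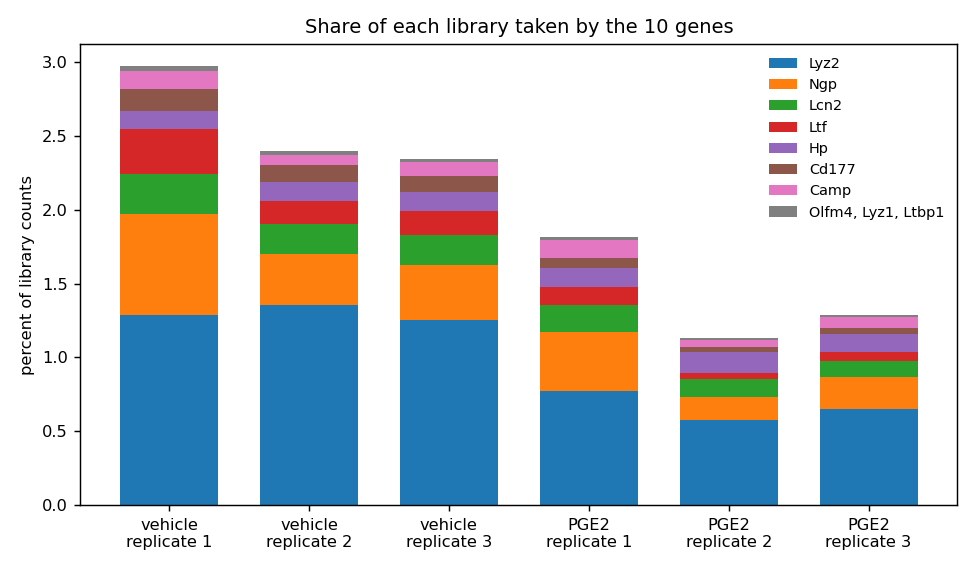
Percent of each library's counts (vertical axis) taken by each gene in the 6 libraries (horizontal axis), with Olfm4, Lyz1 and Ltbp1 joined. The bars end between 2.34 and 2.97% in vehicle and between 1.13 and 1.81% with PGE2, and Lyz2 is the widest band in each.

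The sequences before the starts of 6 of the genes are shown, since Ltf and Cd177 had the largest falls, Ngp and Camp followed the same order of replicates as Ltf, Camp is the only searched gene with no C/EBP match, and Lyz2 and Lyz1 are neighbouring duplicates that both fell. Each is the 250 bases before the RefSeq start (GRCm38.p6), 5′ to 3′ on the gene's strand, with matches to a C/EBP motif or a TATA box in capitals. Their positions are Ltf chr9:111019042-111019291 (plus strand), Ngp chr9:110419558-110419807 (plus strand), Camp chr9:109849457-109849706 (minus strand), Cd177 chr7:24760312-24760561 (minus strand), Lyz2 chr10:117282273-117282522 (minus strand) and Lyz1 chr10:117292869-117293118 (minus strand). The start used for Cd177 lies inside the outer boundary of the gene given with its values, so that window reaches into the gene by that measure, and the other 5 windows do not.
Ltf: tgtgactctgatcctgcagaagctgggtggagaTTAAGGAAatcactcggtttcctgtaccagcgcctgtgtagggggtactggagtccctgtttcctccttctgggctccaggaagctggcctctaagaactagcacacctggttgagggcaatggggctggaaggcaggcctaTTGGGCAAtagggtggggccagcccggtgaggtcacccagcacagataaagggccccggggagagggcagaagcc
Ngp: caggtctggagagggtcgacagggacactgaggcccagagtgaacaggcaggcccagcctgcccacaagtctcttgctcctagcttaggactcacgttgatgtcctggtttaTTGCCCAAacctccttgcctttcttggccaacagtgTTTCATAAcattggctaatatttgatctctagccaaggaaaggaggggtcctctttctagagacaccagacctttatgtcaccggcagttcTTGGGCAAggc
Camp: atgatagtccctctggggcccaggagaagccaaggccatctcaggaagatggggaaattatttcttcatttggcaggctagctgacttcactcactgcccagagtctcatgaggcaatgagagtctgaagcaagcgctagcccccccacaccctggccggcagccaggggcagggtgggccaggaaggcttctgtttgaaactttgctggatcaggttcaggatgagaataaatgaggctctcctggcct
Cd177: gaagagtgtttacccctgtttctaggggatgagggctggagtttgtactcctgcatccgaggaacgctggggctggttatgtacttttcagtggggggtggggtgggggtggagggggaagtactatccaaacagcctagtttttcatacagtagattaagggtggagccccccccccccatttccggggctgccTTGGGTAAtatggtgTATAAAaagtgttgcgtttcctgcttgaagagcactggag
Lyz2: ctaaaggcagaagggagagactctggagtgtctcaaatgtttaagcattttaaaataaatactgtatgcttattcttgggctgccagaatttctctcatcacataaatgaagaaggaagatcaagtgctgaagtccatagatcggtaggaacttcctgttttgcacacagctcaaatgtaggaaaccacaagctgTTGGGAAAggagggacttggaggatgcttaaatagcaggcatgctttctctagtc
Lyz1: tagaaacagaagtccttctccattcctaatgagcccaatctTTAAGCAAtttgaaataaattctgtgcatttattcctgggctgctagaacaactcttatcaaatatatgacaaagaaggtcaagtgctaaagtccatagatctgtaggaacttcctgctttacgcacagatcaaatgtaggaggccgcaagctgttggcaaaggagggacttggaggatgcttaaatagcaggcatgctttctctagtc

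The motifs were searched as letters on both strands in the 250 bases before the starts of 9 of the 10 genes (RefSeq table, Hp not included) and of all 32851 entries of that table. The C/EBP letters TTNNGNAA were present before 8 of the 9 genes (Ltf, Lcn2, Ngp, Cd177, Lyz2, Lyz1, Olfm4 and 1 of the 2 starts of Ltbp1), and in 36.8% of all windows. Ngp held 3 matches and Ltf 2. The letters GAGGAA, the core bound by PU.1, were present before 5 of 9 (23.3% of all windows). Among these 5, Ltbp1 matched only at its other start. The counts out of 9 are by gene, while the shares of all are by single window. The NF-kB letters, GGGA and TTCC with 2 free bases between, were before 0 of 9 (1.21%), the cAMP response element TGACGTCA before 1, Ltbp1 (1.55%), and the TATA box letters TATAAA before 1, Cd177 (12.4%). Matches of different motifs did not overlap in these genes. A match is a description of the letters and not a binding site.

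Ltf encodes lactoferrin, an iron-binding protein that is the classic content of specific granules (gene 17002, chromosome 9, 111019292 to 111042766, mm10, plus strand). It measured 3052, 1601 and 1736 CPM in vehicle replicates 1, 2 and 3, and 1198, 418 and 596 CPM in PGE2 replicates 1, 2 and 3. The groups did not overlap, and in both the highest library was replicate 1 and the lowest replicate 2. The PGE2 level was 39.2, 26.1 and 34.3% of the vehicle library of the same number. This gave a log2 fold change of -1.53 ± 0.40 (SE) and an edgeR adjusted p of 0.0254. It was 0.0847 without vehicle replicate 1, 0.0632 without PGE2 replicate 2 and 0.0906 without PGE2 replicate 3, and 6.06e-05 with the block, where the log2 fold change was -1.61 ± 0.12. Over 17 alternatives the adjusted p ranged from 3.39e-05 to 0.0906.

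Lcn2 encodes lipocalin 2, which starves bacteria of iron by binding their siderophores (gene 16819, chromosome 2, 32384637 to 32387739, minus strand). Its levels were 2767, 2137 and 2067 CPM in vehicle replicates 1, 2 and 3 and 1745, 1252 and 1015 CPM with PGE2. The groups did not overlap, and replicate 1 was the highest in both. Its log2 fold change was -0.80 ± 0.20 (edgeR adjusted p = 0.0236). Leaving out vehicle replicate 1, vehicle replicate 2, PGE2 replicate 2 or PGE2 replicate 3 gave adjusted p of 0.0774, 0.051, 0.0803 and 0.0651. With the block it was 0.000419, and over all 17 alternatives it ran from 0.00012 to 0.0803.

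Cd177 encodes a surface protein anchored in the specific granule and plasma membranes, which binds PECAM1 and presents proteinase 3 on human neutrophils (gene 68891, chromosome 7, 24743983 to 24760334, minus strand). It stood at 1506, 1174 and 1144 CPM in vehicle and at 630.2, 345 and 348 CPM with PGE2. All PGE2 libraries were below all vehicle libraries, and replicate 1 was again the highest in each group. Its log2 fold change was -1.53 ± 0.24, a 2.89-fold fall, at an edgeR adjusted p of 0.00321. It passed in each of the 17 alternatives. Of the 50-base words of its longest GENCODE transcript, 5.76% also occur in BC049730 or Gm4763, so a small part of its reads may be shared with them.

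Lyz2, the lysozyme gene of myeloid cells, encodes an enzyme that cuts bacterial cell walls (gene 17105, chromosome 10, 117277541 to 117282272, minus strand). It measured 12996, 14230.3 and 13053 CPM in vehicle and 7369, 5929 and 6048 CPM with PGE2. The groups did not overlap, and the highest vehicle library was 1.09 times the lowest, the smallest such ratio of the 10 genes, compared with 1.91 times for Ltf. Lyz2 had a log2 fold change of -1.06 ± 0.12 (edgeR adjusted p = 0.000742). Lyz1, best known as the lysozyme of intestinal Paneth cells, lies 5522 bases away (gene 17110, 117287795 to 117292868, minus strand). It measured 101, 131 and 118 CPM in vehicle and 58.2, 43.9 and 48.7 CPM with PGE2, again without overlap, with a log2 fold change of -1.22 ± 0.14 (edgeR adjusted p = 0.000759). Both lysozyme genes passed in each of the 17 alternatives.

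Lyz1 made up 0.773, 0.914 and 0.894% of the counts of both lysozyme genes in vehicle replicates 1, 2 and 3 and 0.784, 0.735 and 0.798% with PGE2. The groups overlapped, and the difference of -0.088 percentage points had an exact two-sided permutation p of 0.3, where 3 libraries against 3 allow no p below 0.1. The 50 bases before the starts of Lyz1 and Lyz2 shown above are identical. Of their transcripts' 50-base words, 15.4% of those of Lyz2 and 16.1% of those of Lyz1 are shared between them. The sources used here do not say how the counting divided such reads. The level of Lyz1 and its fall are therefore uncertain, and so is its place as a separate gene among those called.

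Ngp encodes neutrophilic granule protein, a relative of the cathelicidins and cystatins (gene 18054, chromosome 9, 110419808 to 110423012, plus strand). It measured 6821, 3585 and 3876 CPM in vehicle replicates 1, 2 and 3, and 3841, 1607 and 1969.95 CPM with PGE2. The groups overlapped only through replicate 1, since PGE2 replicate 1 lay above vehicle replicate 2. Within each number the PGE2 library was lower, at 56.3, 44.8 and 50.8% of vehicle. Ngp had a log2 fold change of -0.95 ± 0.36 (edgeR adjusted p = 0.0924), and -0.99 ± 0.10 with an adjusted p of 0.000184 with the block. Without PGE2 replicate 1 the unblocked value was -1.40 with an adjusted p of 0.0132. Over the 17 alternatives the adjusted p ran from 8.71e-05 to 0.294.

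Olfm4 encodes olfactomedin 4, a glycoprotein found in the specific granules of a subset of neutrophils (gene 380924, chromosome 14, 80000302 to 80023141, plus strand). It stood at 209, 144 and 105 CPM in vehicle and at 127, 71.3 and 62.2 CPM with PGE2, and the order of the replicate numbers, 1 above 2 above 3, was the same in both groups. The groups overlapped, while the PGE2 libraries stood at 60.7, 49.4 and 59.5% of the vehicle libraries of the same number. The log2 fold change of -0.81 ± 0.31 had an edgeR adjusted p of 0.0973, and -0.83 ± 0.08 with the block had 0.000193. Without PGE2 replicate 1 the unblocked adjusted p was 0.018, and the 17 alternatives spanned 0.000193 to 0.302.

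Camp encodes the cathelicidin precursor, from which the antimicrobial peptide CRAMP is cut (gene 12796, chromosome 9, 109847377 to 109849456, minus strand). Its values were 1257, 729 and 971 CPM in vehicle and 1166, 459 and 718 CPM with PGE2. The groups overlapped widely, and PGE2 replicate 1 was at 92.8% of vehicle replicate 1, against 62.9 and 74.0% for replicates 2 and 3. Camp had a log2 fold change of -0.34 ± 0.32 (edgeR adjusted p = 0.503). With the block it was -0.40 ± 0.11 and the adjusted p was 0.0233, so the call rests on the pairing, and it was 0.0482 with the block and library totals in place of scaling. Over the 17 alternatives the value ran from -0.73 to -0.06 and the adjusted p from 0.0233 to 0.901.

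Hp encodes haptoglobin, which binds free hemoglobin and is stored in neutrophil granules as well as made by the liver (gene 15439, chromosome 8, 109575128 to 109579172, minus strand). It measured 1208, 1373 and 1282 CPM in vehicle and 1226, 1471 and 1111 CPM with PGE2. The PGE2 libraries lay on both sides of the vehicle libraries. Hp had a log2 fold change of -0.02 ± 0.12 (edgeR adjusted p = 0.923), and it was above 0 in 5 of the alternatives and below 0 in the others, from -0.14 to 0.074.

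Ltbp1 is best known for a matrix protein that holds latent TGF-beta (gene 268977, chromosome 17, 75005480 to 75392512, plus strand). It had 32, 18 and 5 counts in vehicle and 51, 43 and 30 counts with PGE2, which placed it at rank 17106 by vehicle TPM. The groups overlapped and the log2 fold change of 0.90 ± 0.68 had an edgeR adjusted p of 0.387. In level it stood far below the other 9 genes, so the data gave it no place among the abundant granule genes. The only gene overlapping any of the 10 was the pseudogene Gm6276 within Ltbp1, listed at 0 counts in all 6 libraries.

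**Figure D3:**
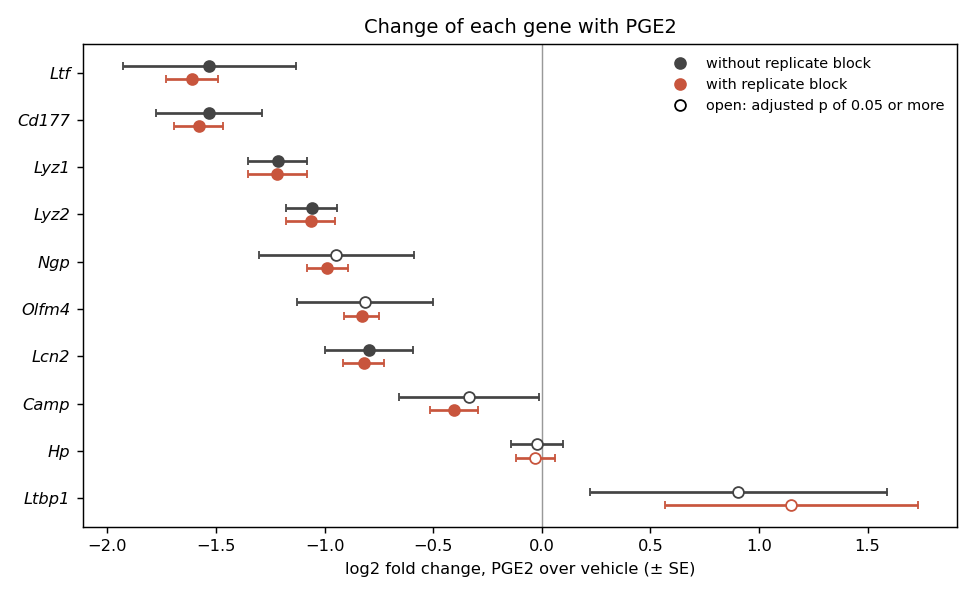
Log2 fold change of each gene, PGE2 over vehicle, with its SE (horizontal axis), in the fit without and with the replicate number as a block; filled points have an adjusted p under 0.05. The values move little between the fits, Ltbp1 most, while the error bars of Ltf, Lcn2, Cd177, Ngp, Olfm4 and Camp shrink most with the block.

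The replicate number moved with the level in most of these genes, but not in Lyz2, Lyz1 or Hp, in which replicate 1 was the lowest vehicle library. Replicate 1 was the highest library of both groups in 7 of the 10 genes, a pattern seen in 19.8% of all genes tested. Ltf, Camp and Ngp had the order 1 above 3 above 2 in both groups, 3 of 10 genes against 4.44% of all. Each PGE2 library was below the vehicle library of its number in 8 of 10 genes, and in 30.3% of all. Markers of dividing precursors had summed levels of 508, 312 and 407 CPM in vehicle replicates 1, 2 and 3 and 517, 393 and 486 CPM with PGE2. This sum had the same order of numbers as Ltf, Camp and Ngp. Of its genes, Mki67, Tuba1b and Birc5 had that order in both groups. Top2a and Ccnb1 had it in vehicle only, and Cdk1, Kit and Cd34 in neither group. None of the 8 precursor markers passed the edgeR test (0 at an adjusted p under 0.05, with 4 higher with the block). Of all genes tested, 16.6% were higher with the block. Mki67, a proliferation marker, stood at 144 ± 45.4 CPM in vehicle and 151 ± 26.6 CPM with PGE2, and Tuba1b, a tubulin gene, at 107 ± 17.4 and 132 ± 17.9 CPM. The part of such cells in the order of the replicates was not tested.

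Ltf, Ngp and Camp lie on 1 stretch of chromosome 9, with 570351 bases between Camp and Ngp and 596279 between Ngp and Ltf. Of the 42 other genes listed between Camp and Ltf, 20 were tested, 4 were lower and 0 higher, with a median log2 fold change of -0.14 (14.3% of all genes tested were lower).

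Other genes of the specific granule were read from a list without the 10 genes. Of 17 listed, 16 were tested, 8 fell, 1 rose and 7 did not pass, and with the block 10 fell and 2 rose. Among all genes tested 14.3% were lower and 10.1% higher, and 18.9% and 16.6% with the block. Their median log2 fold change was -0.49. Pglyrp1, which encodes a bactericidal peptidoglycan recognition protein of the granule, went from 810, 867 and 891 CPM in vehicle replicates 1, 2 and 3 to 531, 363 and 369 CPM with PGE2. The groups did not overlap (log2 fold change -1.02 ± 0.15, edgeR adjusted p = 0.00238). Ceacam1, an adhesion molecule of the granule membrane, and Itgb2, the common chain of the beta2 integrins, also fell, by 1.76 ± 0.21 and 0.97 ± 0.10 on the log2 scale. Cfp, which encodes the complement factor properdin, moved the other way, from 193 ± 20.1 to 322 ± 41.8 CPM (log2 fold change 0.74 ± 0.12, edgeR adjusted p = 0.00373).

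Genes of the granules formed later and earlier were read in the same way. Of 7 gelatinase granule genes tested, 2 fell and 0 rose, with a median log2 fold change of -0.06. They were Mmp9, from 4555 ± 616 to 2005 ± 136 CPM, and Mmp25, a membrane-bound metalloprotease gene, from 279 ± 41.0 to 105 ± 28.7 CPM. The protease gene Adam8 was at 1017 ± 112 and 1280.4 ± 202 CPM and did not pass (edgeR adjusted p = 0.113, and 0.0262 with the block). Of 10 azurophil granule genes, 2 fell and 1 rose, with 5 and 2 with the block, and the median was -0.31. Over all genes tested 14.3% were lower and 10.1% higher, and 18.9% and 16.6% with the block. The azurophil counts without the block are near those shares, while the 5 of 10 lower with the block are above 18.9%. Elane, the neutrophil elastase gene, went from 107 ± 20.4 to 60.5 ± 9.12 CPM, and Mpo, the myeloperoxidase gene, had a log2 fold change of -0.99 ± 0.12. Srgn, which encodes the proteoglycan serglycin, was the gene that rose, by 1.80 ± 0.17 on the log2 scale. No test compared these lists with each other.

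**Figure D4:**
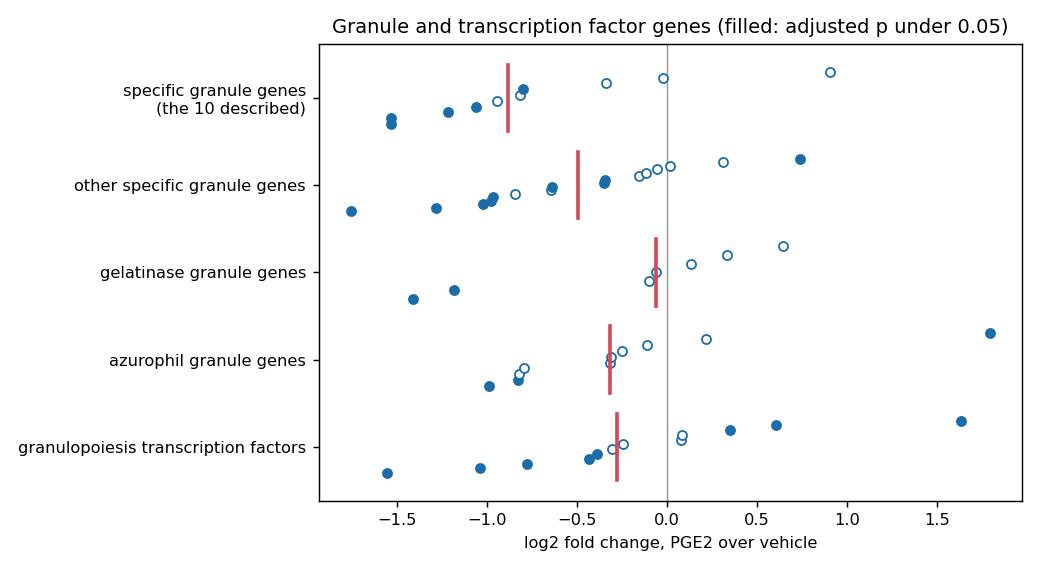
Log2 fold change of single genes, PGE2 over vehicle (horizontal axis), for the 10 genes and 4 other lists; each point is a gene, filled where the adjusted p is under 0.05, and the bar is the list's median. The medians lie at -0.88, -0.49, -0.06, -0.31 and -0.28 from top to bottom.

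Among 12 transcription factor genes of granulocyte development, 5 were lower and 3 higher, beside 14.3% and 10.1% of all genes tested. Their median log2 fold change was -0.28. Cebpe, whose product drives specific granule genes, measured 87.4, 70.2 and 86.4 CPM in vehicle and 50.3, 36.7 and 55.5 CPM with PGE2. The groups did not overlap, and the log2 fold change was -0.77 ± 0.16 (edgeR adjusted p = 0.0101, and limma adjusted p = 0.051 on log2(TPM + 0.1)). Cebpa, which acts at the start of the granulocyte lineage, went from 110.2 ± 5.10 to 53.6 ± 3.09 CPM (log2 fold change -1.04 ± 0.08). Cebpb, the family member tied to emergency granulopoiesis, went from 103 ± 19.2 to 320 ± 64.1 CPM (log2 fold change 1.63 ± 0.18). Cux1, a repressor of late myeloid genes, and Nfkbiz, which helps induce Lcn2 in inflammation, rose by 0.61 ± 0.13 and 0.35 ± 0.09 on the log2 scale. The Nfkbiz call was lost when vehicle replicate 1, 2 or 3 or PGE2 replicate 2 was left out (edgeR adjusted p of 0.0543, 0.068, 0.101 and 0.0919), and the Cux1 call without vehicle replicate 2 (0.0535). On log2(TPM + 1) limma called neither (adjusted p = 0.402 and 0.119).

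Genes for receptors and partners of the 10 proteins were mostly low. Of 21 listed, 13 were tested, 3 rose and 1 fell, beside 10.1% and 14.3% of all genes. The lipocalin receptor gene Slc22a17 was at 0.470 ± 0.150 and 0.696 ± 0.147 CPM and the haptoglobin receptor gene Cd163 at 0.403 ± 0.113 and 0.575 ± 0.280 CPM in vehicle and PGE2, and neither passed. Tfrc, the receptor that takes up transferrin iron, rose from 66.4 ± 5.48 to 111 ± 23.9 CPM (log2 fold change 0.74 ± 0.15), and Cd14, the lipopolysaccharide co-receptor, rose by 2.99 ± 0.41 on the log2 scale. Tgfb1, the cytokine that latent TGF-beta binding proteins hold, went from 188 ± 16.0 to 137 ± 13.5 CPM (log2 fold change -0.46 ± 0.10, edgeR adjusted p = 0.0135). The p was 0.0587 without vehicle replicate 2 0.0507 without PGE2 replicate 2 and 0.0563 with library totals.

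The libraries held the markers of neutrophils and of other cells, with the erythroid sum in PGE2 replicate 2 at 51772 CPM. Beside the counts below, 14.3% of all genes tested were lower and 10.1% higher, and 18.9% and 16.6% with the block. Summed neutrophil markers came to 69163 to 79538 CPM in vehicle and 70324 to 86728 CPM with PGE2, and most of this sum came from S100a8 and S100a9, which did not pass (edgeR adjusted p = 0.363 and 0.289). Of the 10 neutrophil markers 5 fell, namely Csf3r, Ly6g, Cxcr2, Cxcr4 and Mmp8 with log2 fold changes of -0.93, -0.87, -0.35, -0.49 and -0.98, and 1 rose, Il1r2, from 143 ± 38.8 to 569 ± 91.1 CPM. Mmp8 is also among the other specific granule genes that fell, so the counts of these lists share it. Monocyte and macrophage markers, whose cells also express Lyz2, summed to 777 to 936 CPM in vehicle and 634 to 811 CPM with PGE2. Of these 14 genes 2 fell and 12 did not pass, with 2 higher and 2 lower with the block. The median log2 fold change of the 14 was 0.09. It includes C1qa, C1qb, C1qc and Mrc1, at 0.446, 0.331, 0.431 and 0.631 CPM in vehicle, whose rises did not pass. Ly86 and Ms4a6c were the genes higher with the block, by 0.50 and 0.31 on the log2 scale. Those that fell were Csf1r (284 ± 30.9 to 191 ± 35.6 CPM) and Adgre1 (119 ± 30.2 to 60.9 ± 10.1 CPM), while Ccr2 was at 146 ± 30.6 and 126 ± 12.2 CPM. Eosinophil markers summed to 154 to 311 and 72.8 to 119 CPM, with 6 of 9 lower. Among these 6 the log2 fold change ran from -2.53 for Ear6 to -0.92 for Ear2. Prg3, Il5ra and Ccr3 did not pass, with log2 fold changes of -0.48, 0.50 and 0.35. Prg2, the highest of the list by CPM, went from 118 ± 46.2 to 55.4 ± 14.3 CPM, and Ear2 from 22.2 ± 6.04 to 11.7 ± 1.72 CPM. In vehicle replicate 2 Prg2 stood at 171 CPM, against 88.9 and 93.2 CPM in vehicle replicates 1 and 3. The Csf1r call was lost without vehicle replicate 1, vehicle replicate 2, PGE2 replicate 2 or PGE2 replicate 3 (edgeR adjusted p from 0.0537 to 0.0807), and the Prg2 call without PGE2 replicate 2 or 3 (0.0783 and 0.0819). B lineage markers summed to 412 to 563 and 624 to 917 CPM with 4 of 9 higher, and 8 of 9 with the block, among them Cd79a at 204 ± 33.9 CPM with PGE2, against 117 ± 11.5 CPM in vehicle (not called by limma on log2(TPM + 1), adjusted p = 0.052). Erythroid markers summed to 4475 to 20204 CPM in vehicle and 15777 to 51772 CPM with PGE2, and 0 of 8 passed the edgeR test, while 8 of 8 were higher with the block. Hbb-bs and Hba-a1 led this list by mean CPM. Hemoglobin genes took the smallest share of counts in replicate 1 of each group, where Ltf was highest. With hemoglobin genes removed before scaling, the same 5 calls among the 10 genes were made, and the log2 fold change of each had its sign. Basophil and mast cell markers (Prss34, Mcpt8), T and NK markers (Il7r, Cd3d) and platelet markers (Itga2b, Pf4) summed to at most 179, 200.3 and 35.2 CPM in any library. None of these 3 lists had a gene called by edgeR without the block (0 genes), and with it 3 T and NK markers and 1 platelet marker, Itga2b, were higher (block adjusted p of Itga2b = 0.0139, and 0.0303 with library totals and no block). The part of these cells in the changes of the granule genes was not tested.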

How the data were processed

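The 10 genes, the gene lists and the tests were chosen with earlier results of these data known. The deposited series table gives estimated counts for each gene, per the file headers; they are whole numbers whose sums vary from library to library, so they were treated as unnormalized although the file's name speaks of normalization. TPM values were made by the authors, per the file headers, and in the series table equalled those of each library's own table (tolerance 0.1%) for all genes compared. The submitters' processing notes name Bowtie2, STAR, StringTie 2.1.3b, RSEM and DESeq2, and mm10. The sources used here do not say which tool made which value or whether strand was used. Another 18 columns, from 6 libraries that are not among the samples here, were left out.

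Sample titles gave the groups and the number of each replicate. Genes with at least 10 counts in at least 3 libraries (15947) were tested with edgeR 4.0.16 in R 4.3.3 (quasi-likelihood test, TMM scaling, two-sided, Benjamini-Hochberg adjustment at 0.05), after a test on simulated data. Same-numbered libraries had deviations from their group means that correlated at 0.26, 0.17 and 0.19, and other pairs at 0.0019 or below. Deviations within a group cancel out, so the lower values of the other pairs are not separate evidence. On this basis same-numbered libraries were treated as pairs in the replicate block only, and not in the main fit. The pairing was thus read from these same data, and no label says what a number marks. Alternatives were this replicate block, leaving out single libraries, the size factors and the Wald test of DESeq2 1.42.0, library totals, other filters on counts, and limma 3.58.1 on log2(TPM + 1) or log2(TPM + 0.1). Beside the 10, each related list was represented by its 3 genes of lowest adjusted p plus at most 2 called the opposite way, and each list of other cells by its 2 genes of highest CPM, of which 1 is not reported here. The neutrophil markers, Ear6, Prg3, Il5ra, Ccr3, Adgre1, Ly86, Ms4a6c, Slc22a17 and Cd163 were named after their values were seen. So were C1qa, C1qb, C1qc, Mrc1 and the precursor markers other than Mki67 and Tuba1b. Transcripts were those of GENCODE M21, promoters those of RefSeq.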

Additional observations from a re-analysis of the deposited data

How the results depend on the processing

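The count of specific granule genes called was 5 without the block, and also with DESeq2 size factors, library totals, DESeq2's Wald test, no filter, a filter of 50 counts, hemoglobin genes removed and log2(TPM + 1). It was 8 with the replicate block, 8 with the replicate block and library totals, 8 with the replicate block on log2(TPM + 1), and 3 on log2(TPM + 0.1), where Ltf and Lcn2 had limma adjusted p of 0.0517 and 0.051; the cause was not tested. With a library left out it was 3 to 7. The block moved no call of the 10 genes other than those of Ngp, Olfm4 and Camp. Over all genes 3896 were called, 5657 with the replicate block, 2516 on log2(TPM + 0.1) and 2632 to 3803 with a library left out. Higher genes were 41.5% of the calls, 55.5% with library totals, 58.2% with the block as well, 29.2% on log2(TPM + 1) and 29.3% on log2(TPM + 0.1). TPM moved the median log2 fold change of all genes by -0.10 and -0.12 with these pseudocounts. On TPM the summed share of the 10 genes was 4.14% in vehicle and 2.06% with PGE2. Signs changed for Hp, at 0.065 with library totals and 0.062 with the block as well, and for Mcpt8, at 0.014 with the block and library totals. With a library left out the log2 fold change ran from -0.14 to 0.074 for Hp, -0.70 to 0.19 for Prss34, -0.52 to 0.42 for Mcpt8, -0.37 to 0.68 for Pf4, -0.13 to 0.34 for Mki67 and -0.35 to 0.097 for Il7r. Ltbp1 had no value in the 4 alternatives whose filters it did not pass, and its counts of 5 to 51 limit its precision. Removing hemoglobin genes, and the block joined with another change, were alternatives chosen after seeing the data.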
